A study of Mus musculus with 2 samples.

Results

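The genes described here are 37 mouse genes that license and run DNA replication: subunits of the origin recognition complex, the licensing factors, the MCM helicase and its activators, the sliding clamp and its loader, subunits of the replicative polymerases and primase, the single-strand binding complex RPA, and the enzymes of Okazaki fragment maturation. They were chosen by name from the GENCODE vM21 annotation, by a rule that uses no measured value, and are 37 of its 21938 protein-coding genes on chromosomes 1 to 19, X and Y. For each gene, the ATAC-seq peak was taken that overlapped 500 bp on either side of the gene start, the 5′ end of the gene record. Of the 37 genes, 35 had such a peak. No pair of genes shared a peak, so they account for 35 of the 116782 peaks of the list.

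Accessible DNA was mapped by ATAC-seq, which uses the transposase Tn5 to place sequencing adapters in open chromatin, in EHMT2-dTAG mouse embryonic stem cells (mESCs) of a BL6/129 hybrid background, derived from the KH2 line. In these cells the endogenous H3K9 methyltransferase gene Ehmt2 carries a degron tag and an mCherry reporter. All cells received the vehicle DMSO for 24 h without the degrader, so EHMT2 was present, and they were grown with FBS and LIF on mouse fibroblast feeders. Each of 2 samples, from 2 independent clones, held 50000 cells. Each clone derives from 1 picked colony, and the deposited peak list merges both, so there is 1 condition, no spread between replicates and no test between samples. The counts and medians of the replication genes are therefore set beside those of all protein-coding gene starts.

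Replication starts in 2 steps that the cell cycle keeps apart. In G1 phase, the origin recognition complex, CDC6 and CDT1 load the MCM helicase onto DNA, and geminin later blocks CDT1 so that no origin is licensed again. In S phase, CDC45 and the GINS complex turn the helicase on, and polymerases, clamp, loader and RPA follow at the fork. Many of these genes are known targets of E2F transcription factors, which activate genes at the passage from G1 into S phase, and mESCs, which divide rapidly with a short G1 phase, express them at high levels.

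The promoters are shown first, because some of them carry E2F words, which few other gene starts have. Words searched on both strands were TTTCCCGC, TTTGGCGC, TTTCGCGC and TTTGCCGC for E2F and CCAAT for NF-Y, a factor that binds many promoters of proliferating cells. In the runs below, read 5′ to 3′ along the gene in GRCm38 (mm10), capitals mark these words and their reverse complements. Mcm3, Mcm5 and Mcm6 stand for promoters with both kinds of word, 3 CCAAT words in Mcm3 and Mcm5 and 2 in Mcm6, and Rpa3 for the gene with the highest fold enrichment and no E2F word. Each run spans 250 bases before the gene start and 50 bases from it on.
Mcm3: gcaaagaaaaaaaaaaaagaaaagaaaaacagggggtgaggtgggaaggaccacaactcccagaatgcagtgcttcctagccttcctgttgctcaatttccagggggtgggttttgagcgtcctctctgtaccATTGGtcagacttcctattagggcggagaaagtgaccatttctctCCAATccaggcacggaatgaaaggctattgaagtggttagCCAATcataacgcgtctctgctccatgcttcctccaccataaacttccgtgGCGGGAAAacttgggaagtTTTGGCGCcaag (chr1:20820263-20820562, minus strand)
Mcm5: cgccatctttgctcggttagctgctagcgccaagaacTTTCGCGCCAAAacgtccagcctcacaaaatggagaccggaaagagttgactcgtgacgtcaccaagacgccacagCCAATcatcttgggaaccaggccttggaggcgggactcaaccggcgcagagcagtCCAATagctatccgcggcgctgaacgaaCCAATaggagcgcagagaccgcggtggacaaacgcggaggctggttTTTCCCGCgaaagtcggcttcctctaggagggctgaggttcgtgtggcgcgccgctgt (chr8:75109319-75109618, plus strand)
Mcm6: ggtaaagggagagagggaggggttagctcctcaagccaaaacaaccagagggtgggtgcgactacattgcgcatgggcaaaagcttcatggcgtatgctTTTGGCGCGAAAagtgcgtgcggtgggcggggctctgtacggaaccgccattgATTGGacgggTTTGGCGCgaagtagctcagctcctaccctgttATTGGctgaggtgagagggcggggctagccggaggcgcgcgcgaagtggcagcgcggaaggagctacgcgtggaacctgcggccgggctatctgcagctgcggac (chr1:128359615-128359914, minus strand)
Rpa3: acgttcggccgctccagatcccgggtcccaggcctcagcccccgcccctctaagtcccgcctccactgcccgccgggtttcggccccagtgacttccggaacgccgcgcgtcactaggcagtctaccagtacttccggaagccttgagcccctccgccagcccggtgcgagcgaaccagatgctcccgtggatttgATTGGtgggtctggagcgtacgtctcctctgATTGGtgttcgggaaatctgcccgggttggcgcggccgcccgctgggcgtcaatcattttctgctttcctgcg (chr6:8259124-8259423, minus strand)

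In Mcm5 and Mcm6, a pair of E2F words in opposite orientation overlaps and is printed as 1 stretch of capitals. For the other genes with an E2F word, the surroundings of 1 word are printed, with capitals marking the word. A further word in the runs of Mcm2, where it overlaps the marked word, and of Rfc3 is left in lower case. The printed words of Gmnn, Mcm2, Mcm7 and Gins3 lie outside the 300 bases of their promoters and within 150 bp of the peak summit.
Orc1: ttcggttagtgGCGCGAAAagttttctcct (chr4:108579416-108579445, plus strand)
Orc3: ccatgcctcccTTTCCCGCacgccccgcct (chr4:34614965-34614994, minus strand)
Cdc6: agtagagcggcTTTGGCGCgagttgacttt (chr11:98907830-98907859, plus strand)
Cdt1: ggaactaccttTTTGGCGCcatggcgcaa (capitals at chr8:122568047-122568054, plus strand)
Gmnn: gtgaggtcggtTTTGGCGCgctctggtgtt (chr13:24761562-24761591, minus strand)
Mcm2: cgtggtctagtTTTCGCGCgaaaaccggtg (chr6:88898680-88898709, minus strand)
Mcm4: ccggccccgggTTTCCCGCcaaaacgcaat (chr16:15637606-15637635, minus strand)
Mcm7: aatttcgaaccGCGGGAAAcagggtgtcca (chr5:138172030-138172059, minus strand)
Gins3: gcgagtgcggcGCGGGAAAgcgagtttgaa (chr8:95633507-95633536, plus strand)
Rfc3: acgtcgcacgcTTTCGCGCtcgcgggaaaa (chr5:151651200-151651229, minus strand)
Pole: acgtggagagcGCGCCAAAttctccccgga (chr5:110286332-110286361, plus strand)

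A peak at the gene start was present for 94.6% of the replication genes, against 64.3% of all protein-coding genes (14106 of 21938). With peaks of a −log10 q-value of at least 10 only, 34 of 37 replication genes had a peak, against 47.1% of all. CpG-rich promoters, here those with a GC content of at least 50% and a CpG observed/expected ratio of at least 0.6, had a peak in 96.9% of 9059 cases. The share among the replication genes was thus near that of CpG-rich gene starts. Of the replication genes, 26 had a CpG-rich promoter and all 26 had a peak, while 9 of the other 11 did. Over all genes outside the CpG-rich class, 41.3% had a peak.

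Their peaks were stronger than the typical peak at a gene start but not wider. Fold enrichment is the fragment pileup at the summit plus 1 over the local background plus 1, and its median was 12.6 over 35 replication genes, with a range from 4.96 to 17.2, against 8.43 over the 14106 starts with a peak. The number of fragments over the summit had a median of 47 and a range from 12 to 117, against 32. The median width was 1009 bp, against 1045 bp, and the widths ran from 586 bp for Orc3 to 1523 bp for Cdc45. Fold enrichment exceeded the median of all starts in 25 of 35 genes and their upper quartile of 11.4 in 20. Fragment numbers exceeded the median in 26 and the upper quartile of 53 in 17, and widths exceeded the median in 16. Against CpG-rich starts alone, which had medians of 9.24 for fold enrichment and 38 for fragments, 25 genes were above the first and 22 above the second.

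**Figure D1:**
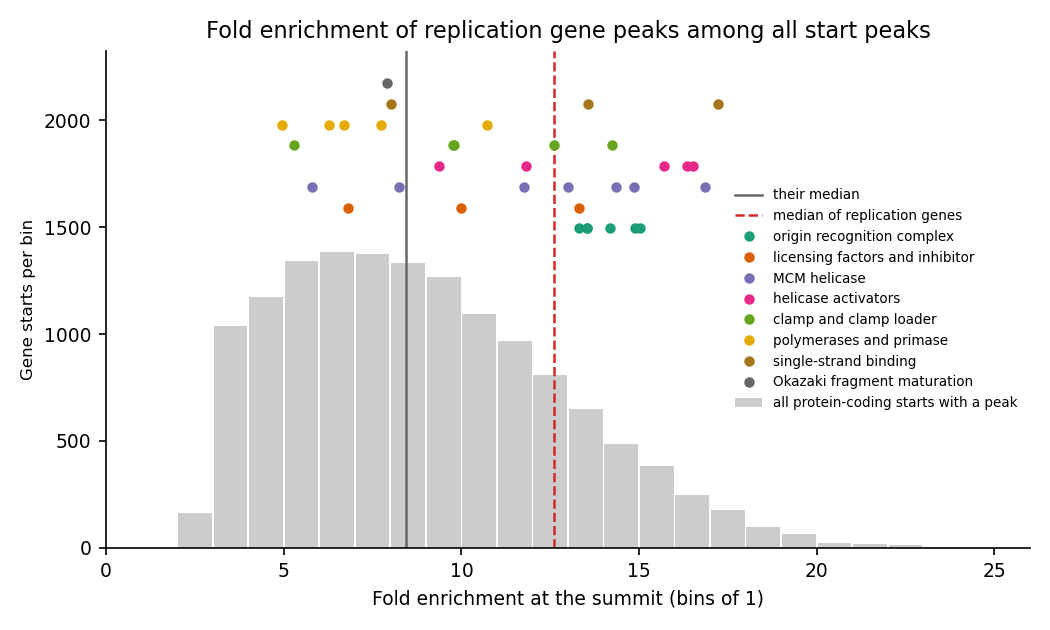
Fold enrichment at the summit (horizontal axis, bins of 1) against the number of protein-coding gene starts in each bin (grey bars, 14106 starts with a peak). The points above the bars are the 35 replication genes, 1 row per role, whose heights carry no value. The origin recognition points lie close together between 13.3 and 15.0, whereas 4 of the 5 polymerase and primase points lie left of the median of all starts of 8.43.

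Fragment numbers are given with exact Poisson 95% intervals, which reflect the counting of fragments alone and leave out any variation from clone to clone. By these intervals, 18 replication genes lay wholly above the median of 32 fragments and 3 wholly below it. Rfc3, with 47 fragments, was the lowest of the 18, and 68.4% of all starts with a peak had fewer. Fen1, with 20, was the highest of the 3, and 27.0% of all starts with a peak had fewer. In the order of fragment numbers, from Gins1 with 117 to Pola2 with 12, the intervals of all neighbours overlapped, and each gene's interval overlapped those of 7 to 22 others. The order is thus resolved only between its upper and lower parts.

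**Figure D2:**
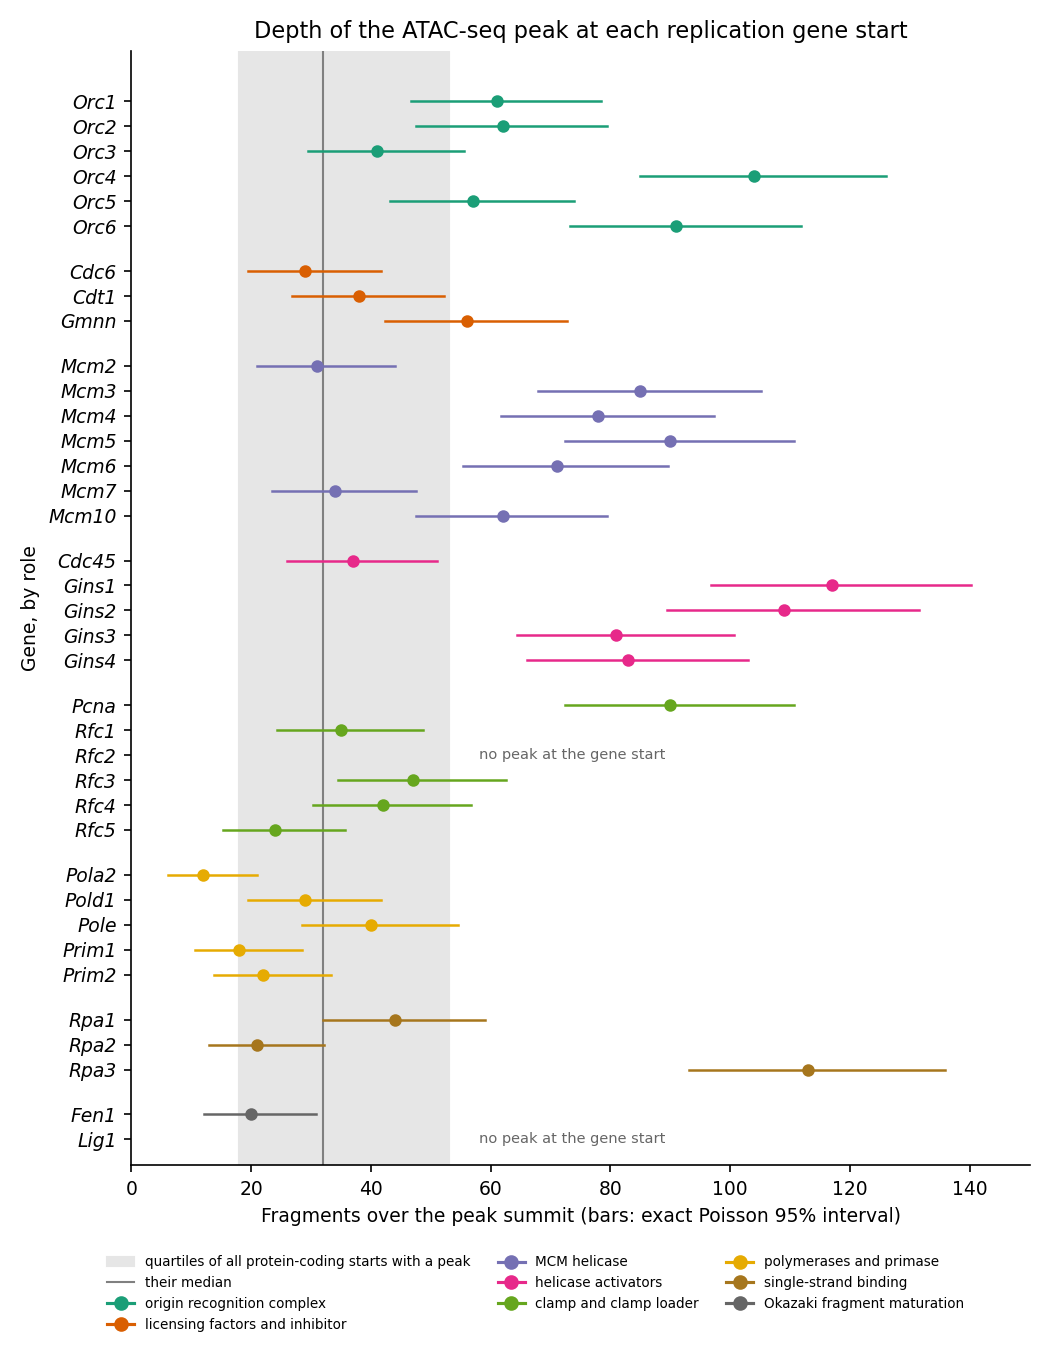
Fragments over the peak summit (horizontal axis) for each of the 37 genes (vertical axis), grouped and coloured by role, with exact Poisson 95% intervals as bars. The grey band spans the quartiles of all protein-coding starts with a peak, 18 to 53 fragments, and the line is their median of 32. The 4 GINS genes and most MCM genes lie above the band, and Pola2, Prim1 and Fen1 have intervals wholly below the line.

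The origin recognition complex, which marks origins and loads the helicase, had peaks of nearly equal fold enrichment at all 6 of its genes. The 6 values ran from 13.3 at Orc4 to 15.0 at Orc5, all above the upper quartile of all starts. Their fragment numbers differed more, from 41 (29.4 to 55.6) at Orc3 to 104 (85.0 to 126) at Orc4. Orc1, the subunit that oscillates with the cell cycle in many cells, had 61 fragments (46.7 to 78.4) and a fold enrichment of 13.5. Orc2 had 62 fragments, Orc5 57, and Orc6 91 (73.3 to 112). Each of the 6 peaks held the start of another gene, and the peak of Orc4 did not hold the start of Orc4 itself. More on both is given below.

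Among the licensing factors, Gmnn, which encodes the CDT1 inhibitor geminin, had the strongest peak, with a fold enrichment of 13.3 and 56 fragments (42.3 to 72.7). Cdc6, the loader that joins ORC, had a fold enrichment of 10 with 29 fragments (19.4 to 41.6). Cdt1, which brings the MCM complex to the origin, had 38 fragments (26.9 to 52.2) over a background of 4.74 and a fold enrichment of 6.79, under the median of all starts. The fragment interval of Gmnn overlapped that of Cdt1 and lay just above that of Cdc6.

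The MCM genes fell apart into stronger and weaker peaks. MCM2 to MCM7 form the ring of the helicase, and MCM10 helps to activate it. Mcm3 had the second highest fold enrichment of all replication genes, 16.9 with 85 fragments (67.9 to 105), above 96.9% of all start peaks. Mcm5 had 90 fragments, Mcm4 78, Mcm6 71 and Mcm10 62, with fold enrichments from 11.8 to 14.9. Mcm2 had 31 fragments (21.1 to 44.0) and a fold enrichment of 5.80, under the lower quartile of all starts of 5.86. Mcm7 had 34 fragments (23.5 to 47.5) and a fold enrichment of 8.25. The intervals of Mcm2 and Mcm7 lay wholly below those of Mcm3, Mcm4, Mcm5 and Mcm6. The products of these 6 genes join the ring in equal numbers.

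The helicase activators held the group with the highest medians, 15.7 for fold enrichment and 83 for fragments. The GINS complex has 4 subunits, and their genes had 117 (Gins1), 109 (Gins2), 81 (Gins3) and 83 (Gins4) fragments. Fold enrichment was 15.7 at Gins2, 16.5 at Gins3 and 16.3 at Gins4, and 11.8 at Gins1, where the background of 8.98 was the highest of the 35. The Gins1 peak ends before the Gins1 start and covers that of its neighbour Abhd12. Gins2, Gins3 and Gins4 lie on chromosome 8, where all starts with a peak had a median of 46 fragments, against 31 on the other autosomes. The part of this in the rank of the group was not tested. Cdc45, which binds GINS and the MCM ring, had 37 fragments (26.1 to 51.0) and a fold enrichment of 9.36. Its interval lay below those of all 4 GINS genes, and its peak was the widest of the replication genes.

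In the clamp and its loader, Pcna, which encodes the sliding clamp, had 90 fragments (72.4 to 111) and a fold enrichment of 12.6. The RFC subunits, which open the clamp and place it on DNA, had fewer fragments, from 24 (15.4 to 35.7) at Rfc5 to 47 (34.5 to 62.5) at Rfc3, and each of the 4 intervals lay below that of Pcna. Rfc3 and Rfc4 show how the local background enters the ratio. Rfc4 had 42 fragments over a background of 2.02 and a fold enrichment of 14.2, while Rfc3 had 47 over 8.06 and 5.30. Within 5 kb of the Rfc3 summit, 1949 bp lay in peaks, its own included, the most of the 35, against 787 bp at Rfc4. Across the 35 genes, background and these bases had a Spearman's rho of 0.37, against 0.43 over all starts. The part of neighbouring peaks in the background of Rfc3 was not tested. Rfc2 had no peak in the window.

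The polymerase and primase genes had the lowest median fold enrichment of the groups, 6.69 over 5 genes, with a median of 22 fragments. The 7 further polymerase subunit genes of the second list below had higher medians, 10.3 and 36 fragments. Their fold enrichments ran from 2.98 to 15.8. Pola2, the second subunit of polymerase alpha, had 12 fragments (6.2 to 21) and a fold enrichment of 4.96, the lowest of the 35, and was the single gene whose peak fell under the stricter q-value. Its peak lies at chr19:5963804-5964609. The primase genes Prim1 and Prim2 had 18 and 22 fragments, and Pold1, the catalytic subunit of polymerase delta, had 29 with a fold enrichment of 6.28. Pole, the catalytic subunit of the leading-strand polymerase epsilon, was the highest with 40 fragments (28.6 to 54.5) and 10.7. All 5 fragment intervals lay below those of the 4 GINS genes, for which the limits given above hold.

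RPA, which coats single-stranded DNA at the fork, has 3 subunits, and their genes spanned almost the whole range. Rpa3 had the highest fold enrichment of all replication genes, 17.2 with 113 fragments (93.1 to 136), above 97.5% of all start peaks, in a peak at chr6:8258768-8259775. Rpa1 had 44 fragments (32.0 to 59.1) with a fold enrichment of 13.6, and Rpa2 had 21 (13.0 to 32.1) with 8.03. The interval of Rpa3 lay wholly above the other two. Fen1, the flap endonuclease of Okazaki fragments, had 20 fragments (12.2 to 30.9) and a fold enrichment of 7.89, and Lig1, the ligase that seals them, had no peak in the window.

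The 2 genes without a peak at the gene record's start had a peak at the start of another of their transcripts. For Lig1 it lay 833 bp downstream, at chr7:13278116-13279472, and with 130 fragments and a fold enrichment of 16.1 it exceeded the fragment number of every peak above. Its summit was in an intron, 271 bp from the nearest transcript start. For Rfc2 it lay 853 bp downstream, at chr5:134582219-134583098, with 23 fragments and a fold enrichment of 7.79, and its summit in a coding exon was 42 bp from a transcript start. With all transcript starts counted, or with 2000 bp on either side of the gene start, 37 of 37 genes had a peak. The gene record takes the outermost transcript as the start.

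Other genes also depended on which start was taken. The peak assigned to Gins1, chr2:150904012-150905094, ends before the gene start and covers the start of its neighbour Abhd12. A transcript of Gins1 that starts 4217 bp further downstream had its own peak with 118 fragments and a fold enrichment of 15.0. Prim2 likewise had a peak with 27 fragments and a fold enrichment of 10.2 at a transcript start 47653 bp downstream of the gene record's start, against 22 fragments and 6.69 there. At Orc4, the start lay outside the peak and the summit was 886 bp downstream in an intron. The peak of Orc4 held the start of Mbd5.

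Most summits lay close to the gene start. The median summit position was 36 bp upstream (−36), against 32 bp downstream over all starts and 18 bp upstream (−18) over CpG-rich starts, and 28 of 35 summits lay within 200 bp of the start, or 80%, against 67.1% of all and 74.4% of CpG-rich starts. The summit was downstream of the start in 15 of 35 genes (42.9%), against 55.8% of all and 47.0% of CpG-rich starts. Of the 35 summits, 20 lay upstream of the gene, 12 in a non-coding exon, 2 in a coding exon (Pcna and Prim1) and 1 in an intron. Besides Orc4, the summits furthest downstream were those of Pcna (+440), Mcm7 (+373) and Gmnn (+274). The start itself was inside the peak for 33 of the 35.

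**Figure D3:**
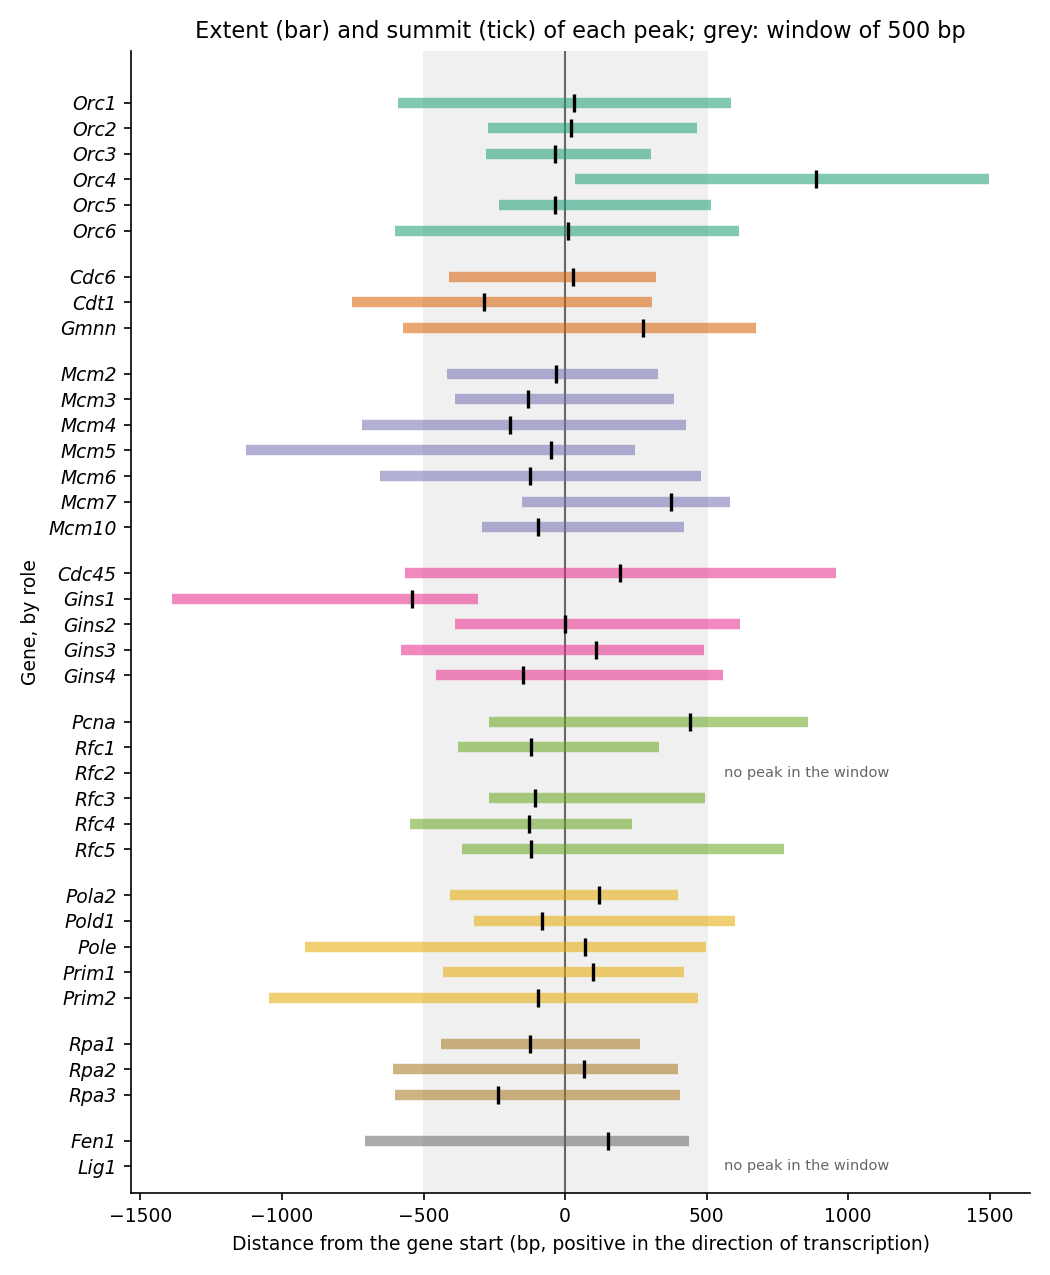
Extent of each peak (coloured bar) and its summit (black tick) as distance in bp from the gene start (horizontal axis, positive along transcription) for each gene by role. The grey band is the window of 500 bp on either side. Most bars straddle 0, the bar of Orc4 lies wholly downstream with its summit at +886, and that of Gins1 lies wholly upstream with its summit at −539.

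Many replication genes share their open region with another gene. In 15 of 35 cases (42.9%), Gins1 and Orc4 with their own start outside the peak among them, the peak held the start of another protein-coding or lincRNA gene. Over all starts with a peak, the share was 19%. A divergent partner, on the opposite strand with its start up to 1000 bp upstream, was annotated for 10 of 37 genes (27.0%), against 7.92% of all protein-coding genes and 15.4% of CpG-rich ones. The origin recognition complex held 4 of the 10: Orc1 with the splicing factor gene Prpf38a at 87 bp, Orc2 with Gm15834 at 39 bp, Orc3 with the mitochondrial tRNA synthetase gene Rars2 at 13 bp, and Orc5 with 6030443J06Rik at 3 bp. The other pairs were Mcm4 with the DNA repair kinase gene Prkdc at 466 bp, Gins1 with Abhd12 at 659 bp, Rfc5 with Gm15728 at 92 bp, Pole with Pxmp2 at 120 bp, Rpa1 with Smyd4 at 109 bp, and Rpa3 with Umad1 at 115 bp and Gm45062 at 277 bp. Genes with a partner had a median of 59 fragments and a fold enrichment of 13.6, and genes without one 42 and 10. The same difference in direction was found over all starts, with 47 and 10.5 against 30 and 8.15. In such a peak, the fragments cannot be divided between the 2 promoters.

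Of the replication genes, 6 lie on chromosome 8, namely Orc6, Cdt1, Mcm5, Gins2, Gins3 and Gins4. Their peaks had a median of 86.5 fragments, a background of 4.96 and a fold enrichment of 15.3, against 42, 3.24 and 11.8 for the 29 peaks on other chromosomes. All 790 protein-coding starts with a peak on chromosome 8 had medians of 46 fragments and a background of 4.44, against 31 and 2.86 on the other autosomes. The part of this in the values of the 6 genes was not tested. Without them, the median of 42 fragments was still above the 32 of all starts.

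Sequence words of E2F type were held by 11 of the 37 promoters (29.7%), against 2.79% of all protein-coding promoters and 5.08% of the CpG-rich ones. These were Orc1, Orc3, Cdc6, Cdt1, Gmnn, Mcm3, Mcm4, Mcm5, Mcm6, Rfc3 and Pole, with 18 words among them, and up to 3 in the Mcm5 and Mcm6 promoters printed above. All 3 licensing genes and 4 of the 7 MCM genes had one, whereas no helicase activator and no RPA gene did. Within 150 bp of the summit, 12 of 35 peaks (34.3%) held an E2F word, against 3.90% of the 12805 peaks at protein-coding starts. Here Mcm2, Mcm7 and Gins3 were added and Cdt1 and Mcm3 dropped out, so that 14 genes (40% of those with a peak) held a word in at least one window, against 5.86% of all starts with a peak and 7.0% of CpG-rich ones. Each of Mcm2 to Mcm7, the genes of the hexameric ring, was among the 14. A word is a match of letters, and neither E2F binding nor its absence can be read from it.

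The CCAAT word was present in 25 of 37 promoters (67.6%), against 39.0% of all and 37.5% of CpG-rich promoters, and within 150 bp of the summit in 71.4% of the peaks, against 34.9%. The window has 250 of its 300 bases upstream of the start, so words placed without regard to the start would mostly lie there. Of the 41 CCAAT copies, 35 lay upstream, 25 of them within 100 bp, and of the 18 E2F words, 10 lay upstream and 8 in the 50 bases from the start on. Both words were found in 9 promoters and neither in 10, among them Pcna, Lig1 and Fen1. Of these 10, Pcna, Gins1 and Mcm7 held a CCAAT word within 150 bp of the summit, and Mcm7 an E2F word as well. The others of them with a peak, Fen1 included, held neither word there. The ETS word CCGGAAG was present in 15 promoters (40.5%), against 10.8% of all and 19.8% of CpG-rich ones. The Rpa3 promoter holds 3 copies, of which those with first bases at −119 and −116 overlap on opposite strands. The Sp/KLF word GGGCGG was present in 67.6%, against 43.0% of all and 75.8% of CpG-rich promoters, and the NRF1 word GCATGCGC in 10.8%, against 3.71% and 6.52%. TATAAA was found in 3 promoters (8.11%), against 12.6% of all and 4.80% of CpG-rich promoters.

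**Figure D4:**
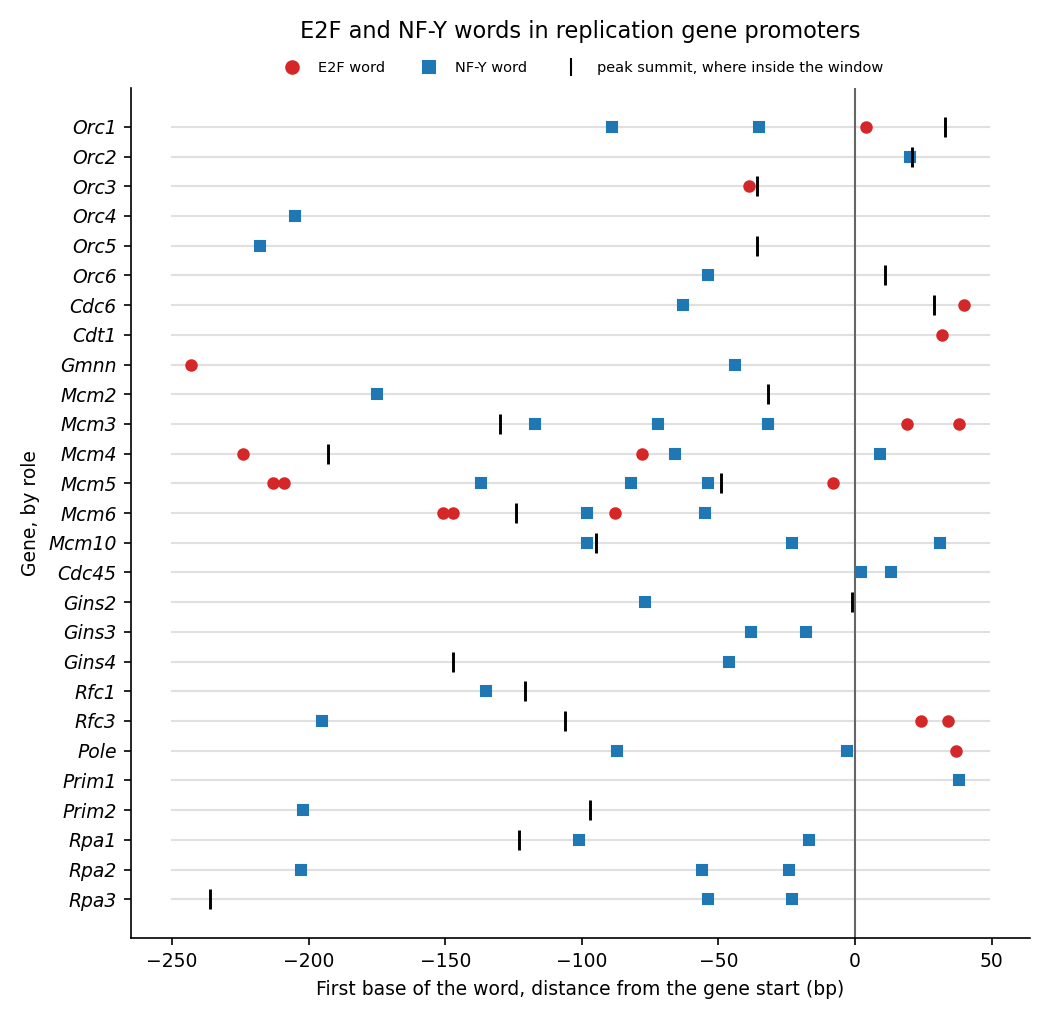
Position of the first base of each E2F word (red circles) and NF-Y word (blue squares) relative to the gene start in bp, for the 27 promoters that hold either, with the peak summit as a black tick where it falls inside the window. Of the 41 NF-Y words, 25 lie in the 100 bp before the start, and the E2F words are spread from −243 to +40.

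Genes with and without an E2F word in the promoter window overlapped in peak strength. The 11 genes with a word there had a median fold enrichment of 13.0 and 56 fragments. The 24 peaks of genes without one there, among them Mcm2, Mcm7 and Gins3 with a word near the summit, had 12.2 and 43. The range of fragments in the first set, 29 to 90, lay within that of the second, 12 to 117. Across the 35 genes, fold enrichment and the CpG observed/expected ratio had a Spearman's rho of −0.013, against 0.27 over all starts. Fold enrichment and fragment number, from which it is computed, had a rho of 0.75. Fragment number and background, which rest on the same libraries, had a rho of 0.80.

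Away from the starts, 18 of 37 replication genes (48.6%) had a peak in the gene body beyond 500 bp, against 54.2% of all protein-coding genes. Prim2 had 17. Within 50 kb on either side, the median was 6 peaks, against 5 for all, from none around Rpa1 to 11 around Mcm5. In 15 of 35 cases a flanking peak had a higher fold enrichment than the one at the start, against 55.2% of all starts with a peak.

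A second list of 60 genes of the same process gave the setting beyond the 37 genes. It holds further polymerase subunits, initiation kinases and factors, fork protection and alternative loader genes, nucleotide supply enzymes, chromatin assembly and maintenance methylation genes, and the E2F and pocket protein genes. Of these, 57 (95%) had a peak at the start, with medians of 10.1 for fold enrichment and 46 for fragments. No peak was found at the gene record's start of Topbp1, Rrm2 and Dnmt1. The promoters of Topbp1 and Rrm2 were CpG-rich by the definition above (ratios of 1.01 and 1.03), and that of Dnmt1 (0.10) was not. Why these peaks were missing was not tested. The highest fold enrichments were 18.0 at Mcm8, a relative of the MCM helicase, and 15.8 at the polymerase epsilon subunit gene Pole2, with 96 and 80 fragments. The lowest were 2.98 at Pole4, 4.2 at Tk1, the thymidine kinase gene, and 4.30 at E2f2, with 16, 11 and 10 fragments. E2F words were present in 18 of the 60 promoters (30.0%), and in 7 of the 13 genes of the E2F and pocket protein group.

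Genes of mitosis and of the ribosome served for comparison. All 33 mitosis genes had a peak, with medians of 12.0 for fold enrichment and 45 for fragments, close to those of the replication genes. The words differed, with an E2F word in 1 of 33 mitosis promoters (3.03%), that of Cdk1, and CCAAT in 27 (81.8%). Cdk1 was named after its value was seen. Of 76 cytosolic ribosomal protein genes, 72 had a peak, with medians of 7.71 for fold enrichment, 33 for fragments and 840 bp for width, and E2F and CCAAT words were in 6.58% and 31.6% of their promoters.

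**Figure D5:**
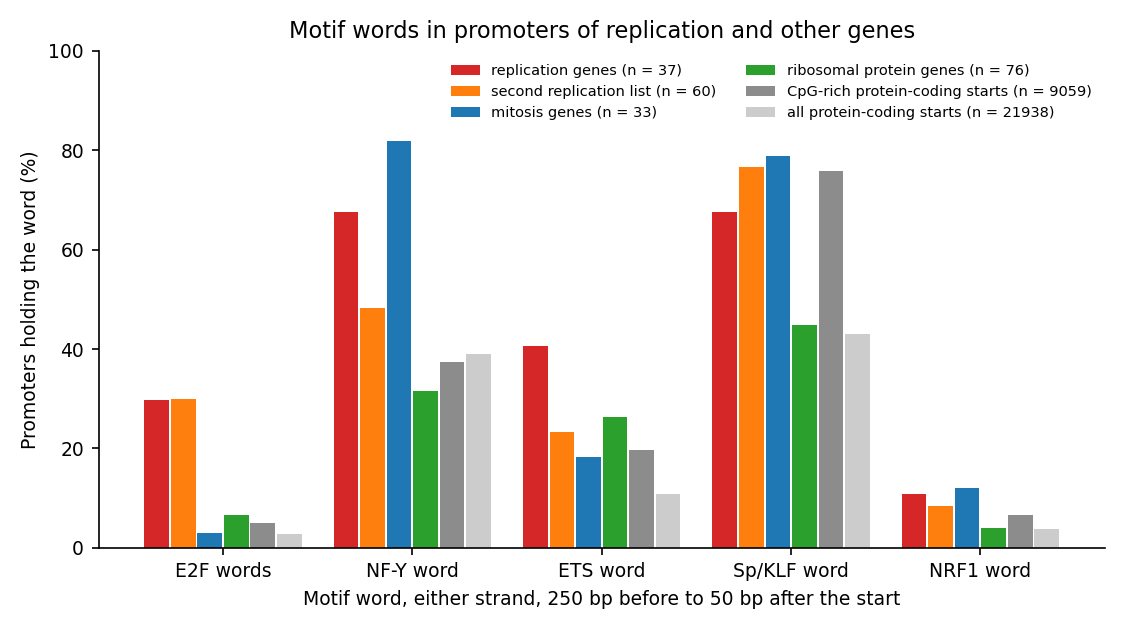
Share of promoters (vertical axis, percent) holding each kind of sequence word on either strand, for the 37 replication genes, the second list of 60, mitosis and ribosomal protein genes, CpG-rich starts and all protein-coding starts. The bars for E2F words stand near 30% in both replication lists and under 7% in all other sets, and the NF-Y bar is highest for mitosis genes.

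The peak list as a whole had a median of 9 fragments and a fold enrichment of 3.98 per peak, and 32 of the 35 replication peaks exceeded its upper quartile for fold enrichment of 6.01. The lower quartile of all protein-coding starts with a peak, 5.86, was near this value, so most such starts exceeded it as well. Of 11 embryonic stem cell markers, 9 had a peak at the gene start, with a median of 44 fragments. The median background of these peaks was 7.62 and their median fold enrichment 5.68. The gene record starts of Esrrb and Fgf4 had none. Of 10 fibroblast markers, looked at because of the feeder cells, 6 had a peak, with a median of 16.5 fragments, and Col3a1, Dcn, Lum and Postn had none. The 6 peaks had a median background of 2.08 and a median fold enrichment of 5.94. By fold enrichment, the stem cell markers were thus not the higher set. The part of feeder cells in the values of the replication genes was not tested.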

How the data were processed

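Both samples, 1 from each of 2 EHMT2-dTAG mESC clones, were given DMSO for 24 h. According to the submitters' processing notes and the study's methods, the authors aligned the reads to mm10 with STAR 2.7.10, removed duplicates with Picard 2.26.0, used SAMtools 1.14 and bedtools 2.30.0, and called peaks with MACS2 2.2.6, for which no control is named. Reads with several best places were put at 1 of them. The deposited list merges both clones. Its fold enrichment, a ratio computed by the authors, belongs to the summit, as do the −log10 p-value and the −log10 q-value deposited with it. The deposited score and summit offset were read as given, and the score was not used further. Library totals were not analysed here.

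From fold enrichment and p-value, each peak's fragment count and its Poisson background were solved for, and the count came out whole (within 0.01) for 116779 of 116782 peaks. This step was also run on simulated counts made with the same formulas, over a narrower range than that of all start peaks. That run checked the calculation alone. Without a control, MACS2 takes as background a mean over a wider region that includes the peak and its neighbours, so strong neighbours lower the ratio. Where several peaks met the window, that of highest fold enrichment was used. Sequence came from GRCm38 through pysam 0.24.0, with Python 3.11.15, NumPy 2.4.6, pandas 2.3.3, SciPy 1.17.1 and matplotlib 3.10.9. Any of the 37 genes could be named, as could divergent partners, markers, and of the second list the genes without a peak and the 3 highest and 3 lowest by fold enrichment, of which 1 is not reported here. Genes, lists, words and alternatives were chosen with earlier results of these data known. The alternatives were a window of 2000 bp, a summit within 500 bp, a −log10 q-value of at least 10, all transcript starts, the nearest peak, CpG-rich starts, leaving out chromosomes, sequence around the summit, and partners within 300 bp.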

Additional observations from a re-analysis of the deposited data

How the results depend on the processing

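The number of replication genes with a peak was between 33 (summit within 500 bp of the start, which dropped Gins1 and Orc4) and 37 (window of 2000 bp, or all transcript starts). Their median fold enrichment stayed between 11.8 (without chromosome 8) and 13.0 (all transcript starts), and their median fragment number between 42 and 51.5. Restricting the comparison to CpG-rich gene starts moved the values of the protein-coding starts, to 96.9% with a peak from 64.3%, to a median fold enrichment of 9.24 from 8.43 and to 38 fragments from 32. The limits for counting a value as moved were not the same for all quantities. They thus do not compare the replication genes and all starts on a common scale. By these limits, the other 26 values recomputed under an alternative did not count as moved. The medians of all starts under the stricter q-value were not among these values. They rose to 42 fragments and a fold enrichment of 9.88, against 51.5 and 12.8 for the replication genes. The replication genes thus stayed above all starts, but by a smaller margin than in the full list. No paired analysis was possible because 1 list pools the 2 clones, and for the same reason neither clone could be left out. With a median of 47 fragments, the intervals of neighbouring genes overlap, and no difference between clones can be seen.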

Other observations

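The genes of the second replication list without a peak at the gene record's start differed in how far the nearest peak lay. For Dnmt1, the maintenance DNA methyltransferase, it was 6559 bp downstream of the start, with 39 fragments and a fold enrichment of 8.93. For Topbp1, which helps to load CDC45, and Rrm2, the small subunit of ribonucleotide reductase, the nearest peaks lay 17910 bp and 27240 bp upstream, each with 6 fragments and a fold enrichment of 3.24. Among the groups of that list, median fold enrichment was 14.8 for nucleotide supply (5 peaks) and 12.1 for chromatin assembly and maintenance methylation (6 peaks). It was 10.3 for further polymerase subunits (7 peaks) and 9.83 for initiation kinases and factors (12 peaks). The lowest were 9.78 for E2F and pocket proteins (13 peaks) and 9.18 for fork protection and alternative loaders (14 peaks).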
